A study of Mus musculus with 4 samples.

Results

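Transcripts of late spermatids and sperm were examined in gonadal WAT of male mice, a fat pad that lies beside the testis and the epididymis. The group holds 9 genes, Tnp1, Tnp2, Prm1, Prm2, Odf1, Odf2, Akap4, Gapdhs and Smcp, which were listed by name as products of late spermatids, with earlier results of these arrays known. Each of the 9 symbols was found once in the probe set annotation, so that 9 of 21225 probe sets on the array belong to the group. RNA came from male NMRI mice that were 48 days old. The FD mice had received a fat diet with 18% fat for 8 days from the age of 40 days (the study's methods give 1 week), and the ND mice a normal diet with 3.3% fat throughout. The fat in FD was sunflower oil, while ND drew its fat mainly from grain. For each diet, RNA of 3 mice went into 1 pool, and 2 Affymetrix mouse gene arrays were hybridised with it. Each diet is therefore represented by 1 biological sample, the arrays of a diet are technical duplicates, and no test of the diets was possible.

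Spermatids finish sperm formation without dividing. In the nucleus, histones are first exchanged for transition proteins and then for protamines, small arginine-rich proteins that pack the DNA tightly. In the tail, outer dense fibres stiffen the flagellum, a fibrous sheath carries signalling and glycolytic enzymes, and mitochondria are wound around the midpiece. Many of these mRNAs are made long before they are translated, and some persist in ejaculated sperm. Sperm leave the testis and are stored in the epididymis, whose epithelium secretes the proteins that mature them. Adipocytes are not known as a source of these transcripts, with the exception of Odf2, whose protein is also part of the mother centriole of somatic cells.

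The promoters of several of these genes share a short sequence, which is shown because the activator CREM is known to drive spermatid genes through cAMP response elements with the core TGACGTCA. RefSeq promoter windows of GRCm38.p6, which run from 250 bases before to 50 bases after the start of transcription, were found for 8 of the 9 genes, in 13 windows. The core TGACGTCA was in none of them. The variant TGATGTCA, searched on both strands and chosen after these sequences had been read, was in a window of 4 of the 8 genes, Tnp1, Smcp, Gapdhs and Akap4. Of all 27025 genes with such windows, 4.18% held it, as did 3.62% of all 32851 windows. Prm1 held the looser form TGANNTCA, which includes both other motifs and was in windows of 15.9% of all genes. Shown are 30 bases around 1 match of each gene, with the matched bases in capitals. Further matches of Gapdhs, on the opposite strand and in its other window, and a match of Akap4 to the looser form are not printed.
Tnp1 (chr1:73015975-73016004, minus strand, match ending 87 bases before the start): gcaaaggttagTGATGTCAcaagagagctg
Gapdhs (chr7:30743757-30743786, minus strand, match ending 87 bases before the start): cactccctctgTGATGTCActgggcaatgt
Akap4 (chrX:7067469-7067498, plus strand, match ending 28 bases before the start): tatagaaacagTGATGTCAtgaattttaag
Smcp (chr3:92589031-92589060, minus strand, match from base 25 after the start): ggagagtattaTGATGTCAtaaaagagctg
Prm1 (chr16:10796869-10796898, minus strand, match ending 57 bases before the start): ctggtcctcttTGACTTCAtaattcctagg
A match is a description of the sequence only. The genes with TGATGTCA included Smcp, which differed between the pools, and Tnp1, Gapdhs and Akap4, which were not called.

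The arrays were comparable in their general properties. A log2 value of 6, the level used as a filter, was reached by 85.2% to 86.2% of the probe sets on each array. The SD over probe sets of the difference between duplicates, divided by the square root of 2, was 0.10 in FD and 0.13 in ND, against 0.39 for the difference between the diets. To be called, a probe set needed diet means that lay 1.5-fold (0.58) or more apart, duplicates that did not overlap between the diets, and an overall mean of 6 or more. The filter was passed by 18211 probe sets, among which 780 were called lower (4.28%) and 242 higher in FD (1.33%). Relative to 15 adipocyte genes, these counts were 995 lower and 149 higher. The adipocyte genes themselves had no called member of 15 and a median difference of 0.06, with Adipoq, the gene of adiponectin, at 13.46 and 13.45 in FD and at 13.25 and 13.54 in ND. The largest differences in this list were -0.38 for Adig and 0.34 for Plin1, the gene of perilipin.

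Among the sperm transcripts, Odf1 and Smcp were lower in FD than in ND, and the other 7 genes were not called. Both encode parts of the sperm tail, and both were lower by close to the same amount. Of the 9 genes, 8 reached a mean log2 value of 6, and 2 of these 8 were called lower, against 4.28% of all probe sets at that level. None was called higher, against 1.33%. The median difference was 0.07 over the 8 genes and 0.04 over all 9, and that of all probe sets at a level of 6 or more was 0.03. The cells that gave the signal of Odf1 and Smcp were not identified. In these tissue pools, fewer such cells and less RNA per cell cannot be told apart.

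**Figure D1:**
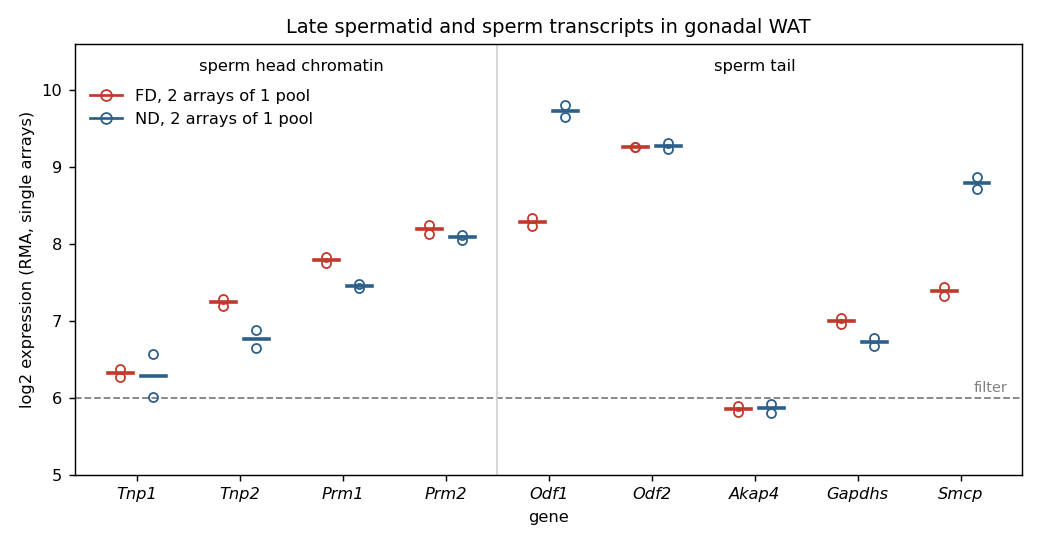
Log2 expression (RMA) of the 9 late spermatid and sperm genes, with a circle for each array and a bar for the mean of the 2 arrays of a diet's RNA pool (FD left, ND right of each gene), and a dashed line at the filter level of 6. Odf1 and Smcp lie more than 1 log2 unit lower in FD than in ND, while the diet means lie less than 1.5-fold apart for the other 7 genes.

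Odf1 encodes the main cysteine-rich protein of the outer dense fibres. It had log2 values of 8.33 and 8.24 on the FD arrays and of 9.81 and 9.65 on the ND arrays. All values of FD lay below those of ND, with a gap of 1.32 between the highest FD and the lowest ND array, while duplicates differed by 0.09 in FD and by 0.16 in ND. The means were 8.29 ± 0.06 in FD and 9.73 ± 0.12 in ND (SD, n = 2 arrays of 1 pool each). The log2 difference of -1.44 corresponds to 2.72-fold lower expression in FD. A negative difference of this size or larger was found in 205 of the 18211 probe sets, or 1.13%.

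Smcp encodes a cysteine-rich protein of the outer membrane of sperm mitochondria, known for its part in sperm motility in mice. Its log2 values were 7.33 and 7.44 in FD, against 8.71 and 8.87 in ND. The diets did not overlap, and the gap of 1.28 between them exceeded the differences between duplicates of 0.11 in FD and 0.15 in ND. The means were 7.38 ± 0.08 in FD and 8.79 ± 0.11 in ND (SD, n = 2 arrays of 1 pool each). The log2 difference of -1.41 corresponds to 2.65-fold lower expression in FD and was reached by 214 probe sets, or 1.18%. Odf1 and Smcp kept their calls when any 1 array was left out, with differences between -1.53 and -1.36 for Odf1 and between -1.48 and -1.33 for Smcp. In both pools they stayed above the level of 6, so the filter does not bound their differences.

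The remaining tail genes were not called. Akap4 and Gapdhs lay near the low end of the scale, so whether they could have shown a fall is not settled. Odf2, which encodes another outer dense fibre protein and a centriole protein, had values of 9.26 and 9.25 in FD and of 9.24 and 9.32 in ND. The diets overlapped, and the difference was -0.02. Akap4, which encodes the major protein of the fibrous sheath and an anchor of protein kinase A, was under the filter level, at 5.82 and 5.89 in FD and at 5.81 and 5.92 in ND. Its values overlapped too, with a difference of -0.01. Gapdhs, the spermatogenic form of the glycolytic enzyme GAPDH and a protein of the same sheath, had values of 7.04 and 6.96 in FD and of 6.77 and 6.68 in ND. Both FD arrays lay above both ND arrays, but the difference of 0.28 did not reach 1.5-fold. The somatic gene Gapdh was not analysed here, since no probe set bore its symbol, and a contribution of its transcripts to the Gapdhs probes was not tested.

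None of the genes of sperm head chromatin was called. Tnp2, a transition protein gene, had values of 7.28 and 7.20 in FD, against 6.64 and 6.88 in ND. The diets did not overlap, and the log2 difference of 0.48 corresponds to 1.39-fold, which is under the threshold. Without the second ND array the difference was 0.60 and Tnp2 was called higher. Tnp1, the other transition protein gene, had values of 6.38 and 6.28 in FD and of 6.57 and 6.01 in ND. Here the duplicates of ND differed by 0.57, more than for any other gene of the group, and the difference between the diets was 0.04 (-0.25 without the second ND array and 0.32 without the first). The protamine gene Prm1 had values of 7.84 and 7.75 in FD and of 7.48 and 7.43 in ND. The diets were apart, with a difference of 0.34. Prm2, whose product is made as a precursor and then cleaved, had values of 8.25 and 8.13 in FD and of 8.05 and 8.12 in ND. The gap between the diets was 0.01, smaller than the differences between duplicates, and the difference was 0.10.

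In the mouse genome, Tnp2, Prm2 and Prm1 lie next to each other on chromosome 16, with Prm3, a gene of the same family, between Tnp2 and Prm2. Prm3 had values of 8.25 and 8.16 in FD and of 7.83 and 8.00 in ND, a difference of 0.29 that was not called. All 4 genes of this cluster thus had both FD arrays above both ND arrays without reaching 1.5-fold. Prm3 was added after its values were seen, and Prm2 was apart by only 0.01, so this count is a description only. In the sperm group as a whole, 4 of 8 genes were apart in this direction, which was the case in 36.3% of all probe sets at a level of 6 or more, and 2 of 8 in the opposite direction, against 27.2% of all probe sets.

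**Figure D2:**
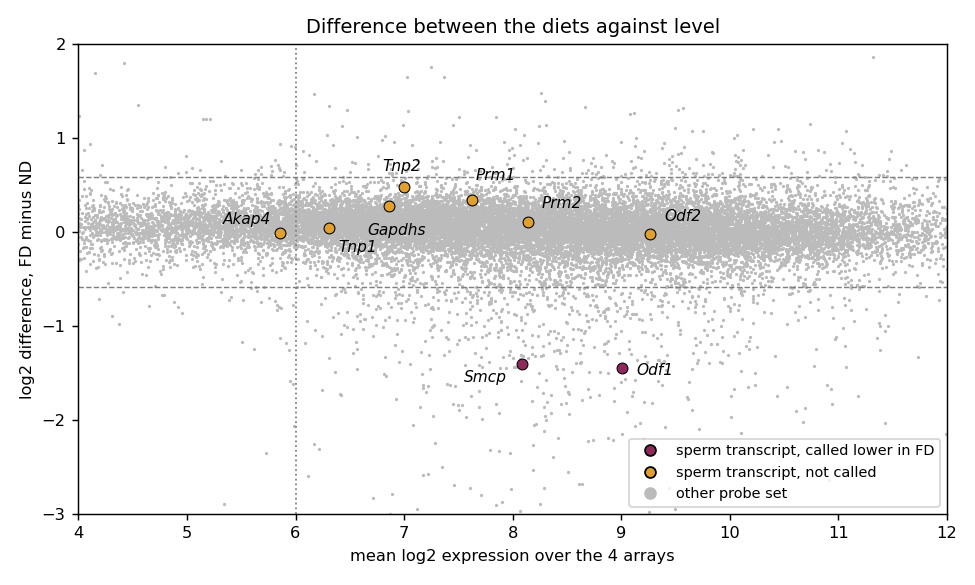
Log2 difference between FD and ND (vertical axis) against the mean log2 level over the 4 arrays (horizontal axis) for the 9 genes and for all other probe sets within the axes. Dashed lines mark 1.5-fold and the dotted line the filter level of 6. Odf1 and Smcp lie near -1.4, and the other 7 genes lie between -0.02 and 0.48, within the dashed lines.

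Array levels of different probe sets cannot be ranked against each other, and the deposited values hold no detection call. As a guide to the low end of the scale, the 1098 probe sets of olfactory receptor genes, which are not known from fat, had a median level of 5.23, and 5% of them were above 7.05. In both diets Odf1, Smcp, Odf2, Prm1 and Prm2 were above 7.05. Smcp was not far above it in FD, at 7.33 and 7.44, so the size of its difference is uncertain. Tnp1, Akap4 and Gapdhs were under 7.05 in both diets and Tnp2 in ND, so these data do not settle whether transcripts of these 4 genes were present. The median difference of the olfactory receptor genes was 0.07. Of the 280 that reached a level of 6, 114 had both FD arrays above both ND arrays, against 36.3% of all probe sets at that level. In 15 both FD arrays lay below, against 27.2%.

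Other genes of the sperm tail were examined as a list of 26. Of these, 22 reached a level of 6, and their median difference was -0.08. Called lower in FD were 2 of the 22, against 4.28% of all probe sets at that level, while 0 were called higher and 20 were uncalled. The called ones were Spa17, which encodes a sperm protein of the fibrous sheath, and Cabyr, which encodes a calcium-binding protein of the same structure. Spa17 had values of 7.44 and 7.43 in FD and of 8.41 and 9.10 in ND, a difference of -1.32. Both FD arrays lay below both ND arrays, although the ND duplicates differed widely. Cabyr had values of 6.98 and 6.68 in FD and of 7.83 and 8.11 in ND, without overlap and with a difference of -1.14. Its FD values lay under the 7.05 mark, so the size of that difference is uncertain. The genes most akin to Odf1, Odf2 and Akap4 by name or place were not called. Odf3 and Odf4, 2 further genes named for outer dense fibres, had differences of 0.30 and -0.27, and Akap3, the partner of Akap4 in the fibrous sheath, had one of 0.01 at a level under 6.

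Of 26 genes of the acrosome and the sperm head, 14 reached a level of 6, with a median difference of 0.04. Called lower was 1 of the 14, against 4.28% of all probe sets at that level, while 0 were called higher and 13 were uncalled. The called gene was Crisp2, which encodes a cysteine-rich protein of the acrosome and the tail, with values of 6.27 and 6.24 in FD and of 6.87 and 6.93 in ND. Its difference was -0.65, with all 4 values under the 7.05 mark. Crisp genes are closely related, and a contribution of transcripts of other Crisp genes to the Crisp2 probes was not tested. Among these, Crisp4, a gene of the epididymal epithelium, was called lower, at 4.87 and 4.97 in FD and at 9.67 and 9.33 in ND. Its FD values were under the filter level, so the size of its difference is not determined. Tmem95 had the next largest difference of this list, 0.22, and was not called. Acr, the gene of acrosin, had a difference of 0.14, and Izumo1, needed for fusion with the egg, one of 0.22 at a level under 6. Neither was called. Of 20 measured genes of spermatid chromatin and its regulators, Prm3 among them, none was called, with a median difference of 0.04. Among all probe sets at a level of 6 or more, 4.28% were called lower and 1.33% higher. In the list of spermatid chromatin the largest differences were -0.50 for Oaz3, a spermatid antizyme, and -0.33 for Crem. Oaz3 was at -0.59 without the first FD array, at -0.65 without the first ND array and at -0.60 relative to the adipocyte genes, and it was called lower in each case.

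**Figure D3:**
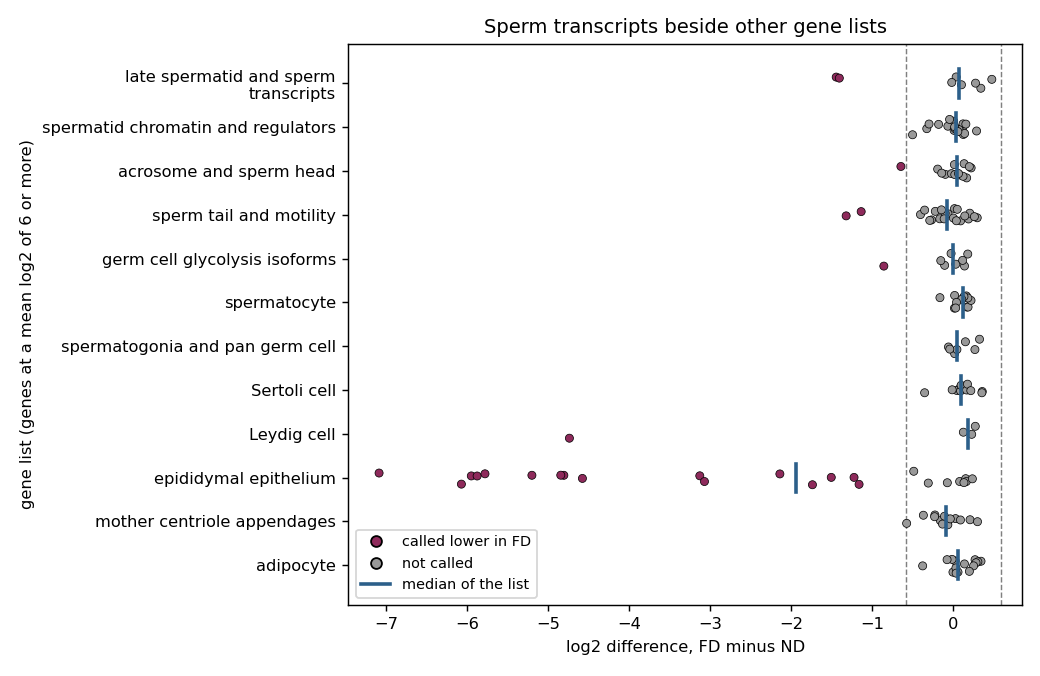
Log2 difference between FD and ND (horizontal axis) for each gene at a mean log2 level of 6 or more, by gene list, with a bar at the median of the list and dashed lines at 1.5-fold. In the top row Odf1 and Smcp lie near -1.4 and the other genes within the dashed lines, and in the row of the epididymal epithelium 16 of 24 genes were called lower, with a median of -1.94 (-1.22 over all 29 genes of the list on the array).

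Of the genes of earlier germ cells and of the somatic cells of the testis, 1 was called, and it was lower in FD. Among all probe sets at a level of 6 or more, 4.28% were called lower and 1.33% higher. None of 12 measured spermatocyte genes was called, with differences between -0.16 and 0.22 and the largest for Tex101, at 0.22, and Dmc1, at 0.18. In this list 5 of the 12 genes had both FD arrays above both ND arrays, against 36.3% of all probe sets at a level of 6 or more. Only 1 had them below, against 27.2%. Nor was any called of 7 genes of spermatogonia and germ cells in general, with differences between -0.06 and 0.33. Dppa3, with the highest of these, was called higher without the second ND array, at 0.78, but was at -0.13 without the first. The germ cell genes Ddx4 and Dazl were under a level of 6 in both diets, Ddx4 at 5.36 and 5.59 in FD and at 5.27 and 5.12 in ND, and Dazl at 5.12 and 5.40 in FD and at 5.12 and 5.29 in ND. Sohlh1, a regulator of spermatogonia, had a difference of 0.27 and was not called. Sycp3, a gene of the synaptonemal complex, had a difference of 0.17 and was not called. None of 11 measured Sertoli cell genes was called. In 7 of them both FD arrays lay above both ND arrays, against 36.3% of all probe sets at a level of 6 or more. In 1 they lay below, against 27.2%. Of the 280 olfactory receptor genes at that level, 114 had them above and 15 below. The largest differences were 0.36 for Sox8 and 0.35 for Dhh, while Amh was at 0.08. Of 4 measured Leydig cell genes, 1 was lower in FD, Cyp17a1, which encodes an enzyme of androgen synthesis, with 7.03 and 6.90 in FD, against 11.86 and 11.55 in ND. Its measured difference was -4.74, with FD values just under the 7.05 mark, so that the true difference may be larger. Insl3, a hormone gene specific to Leydig cells in the testis, had one of 0.23 and Star, the gene of the cholesterol carrier of steroid synthesis, one of 0.27.

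Most, but not all, measured genes of the epididymal epithelium were called lower in FD in the same pools. This list was chosen with results of these arrays known, so its direction is no independent evidence. The 24 measured genes had a median difference of -1.94. Of them, 16 were called lower, against 4.28% of all probe sets at a level of 6 or more. Called higher were 0, and 8 were called in neither direction. Both FD arrays lay below both ND arrays in 18 of the 24, against 27.2% of all probe sets. They lay above in 3, against 36.3%, namely Lcn9, Cst11 and Teddm1a, with differences of 0.16, 0.13 and 0.24. Without the filter the median over all 29 genes was -1.22, and with the filter at 7 it was -3.85. Among the 16 called genes, 7 had an FD mean under 6 and passed the filter through their level in ND. Adam7 was at 5.48 and 5.61 in FD and at 12.65 and 12.62 in ND, and Rnase9 at 4.60 and 4.69 in FD and at 10.51 and 10.68 in ND, so that both were under the filter level in FD and the size of their differences is not determined. The beta-defensin genes Defb22 and Defb26 were at 5.25 and 5.61 and at 5.78 and 6.03 in FD, against 11.62 and 11.38 and 11.63 and 11.95 in ND, with the same limit. The list's expression summed on the linear scale over its 29 genes lay between 6873 and 6985 in FD and between 53260 and 53532 in ND. The same sum over the 5 tail genes of the sperm group lay between 1271 and 1286 in FD and between 2070 and 2087 in ND. Of these 5, only Odf1 and Smcp were called lower, while Odf2, Akap4 and Gapdhs differed by -0.02, -0.01 and 0.28. The sum over the 4 chromatin genes lay between 721 and 771 in FD and between 632 and 639 in ND. Such sums are carried mostly by the probe sets of highest level and cannot be compared between lists. The part of epididymal tissue in the differences of Odf1, Smcp, Spa17, Cabyr and Crisp2 was not tested. With 1 RNA pool per diet, the diet and the tissue taken at dissection cannot be told apart.

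Odf2 was set beside 14 other genes of the mother centriole, because its transcript is also made in somatic cells. None of the 14 was called, against 4.28% called lower and 1.33% called higher of all probe sets at a level of 6 or more. Their median difference was -0.09. The largest differences in this list were -0.57 for Cep83 and -0.37 for Sclt1, both genes of its distal appendages. Cep83 was called lower without the first ND array, at -0.63, after cyclic loess normalization, at -0.61, and relative to the adipocyte genes, at -0.67.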

How the data were processed

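Log2 expression values of 4 arrays (2 for FD, 2 for ND) were used as deposited. For the arrays, of the Affymetrix mouse gene type, the submitters' processing notes name RMA, a method in which background correction and normalization across arrays precede the summary of each probe set as 1 log2 value and in which differences of low genes are compressed. Its software, its version and the genome build were not given in the sources used here. There is 1 probe set per Entrez gene. Of 21225 probe sets, 20239 carry 1 gene symbol and 986 are unnamed here.

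The comparison was the mean log2 value in FD minus that in ND, with the calling rule given in the text in place of a test. Promoter sequences and gene order came from RefSeq (GRCm38.p6). The probe sets were not placed on that build. The 9 genes and all lists were chosen with earlier results of these data known. Named are all genes of the group, up to 4 called genes or otherwise up to 2 genes of each list with the largest differences, and markers of testis cells and somatic relatives. Adipoq, Prm3, Odf3, Odf4, Akap3, Acr, Izumo1, Ldhc, Pgk2, Crisp4, Lcn9, Cst11 and Teddm1a were named after their values were seen. Of the list genes, 9 had no named probe set and were not analysed here.

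The alternatives were other filters and fold thresholds, median centring, scaling to adipocyte genes, cyclic loess (limma 3.58.1) and leaving out each array. Arrays have no sequencing depth, and their number limits the precision. Python 3.11.15, pandas 2.3.3, numpy 2.4.6 and matplotlib 3.10.9 were used.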

Additional observations from a re-analysis of the deposited data

How the results depend on the processing

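Odf1 and Smcp were called lower under all 11 alternatives run, and no other gene of the sperm group was. Given the gaps and levels of Odf1 and Smcp, only the changes of normalization could have altered these 2 calls. The count called higher was 0, except for 1, Tnp2, at a threshold of 1.3-fold and without the second ND array, so that it ranged from 0 to 1 when 1 array was left out. The median difference of the group, 0.07, ranged from 0.015 to 0.195 without 1 array and was -0.029 relative to the adipocyte genes, and its sign is therefore not determined. Over all probe sets, the counts were 1333 lower and 869 higher at 1.3-fold and 386 lower and 41 higher at 2-fold, and 149 were higher relative to the adipocyte genes. Crisp2 was not called with the filter at 7, and neither Crisp2 nor Slc2a3 was called at 2-fold. No called gene named here changed sign under any alternative, for which Crisp4 was not examined. No paired analysis was possible because the arrays of a diet are unordered duplicates of 1 RNA pool and no test was run. Signal near the low end of the scale limits what can be said of Tnp1, Akap4, Gapdhs, Tnp2 and Crisp2. The same limit applies to Smcp, Spa17, Cabyr and Cyp17a1 in FD.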

Other observations

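Sperm use their own forms of several glycolytic enzymes. These were read beside Gapdhs, together with genes that are not particular to sperm. Of 8 measured genes of a list of 11, 1 was called lower in FD, against 4.28% of all probe sets at a level of 6 or more. It was Slc2a3, a glucose transporter of sperm and of other cells. Its values were 9.88 and 9.88 in FD, against 10.77 and 10.71 in ND, with a difference of -0.86. The other 7 were not called. The sperm-specific lactate dehydrogenase gene Ldhc had a difference of -0.11, the aldolase gene Aldoart1 one of 0.18, and the phosphoglycerate kinase gene Pgk2 one of -0.22 at a level under 6.

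None of 9 measured somatic relatives of sperm genes was called, against 4.28% called lower and 1.33% called higher of all probe sets at a level of 6 or more. Ldha had a difference of 0.33, Pdha1 of 0.17, Aldoa of 0.08, H1f2 of -0.08, Ldhb of -0.11, Cycs of -0.13, Akap1 of -0.20 and Odf2l of -0.31. Pgk1 was at 8.67 and 8.53 in FD and at 7.43 and 8.99 in ND, so that its ND duplicates differed by more than the diets did, and it was called higher without the second ND array, at 1.17, but was at -0.39 without the first.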
